A study of Mus musculus with 8 samples.

Results

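The genes described here are 10 of the Notch signalling pathway, measured in sorted cells of mouse alveolar organoids. They comprise 3 receptors (Notch1, Notch2 and Notch3), 3 ligands (Jag1, Jag2 and Dll1), the receptor-modifying enzyme gene Lfng and 3 target genes (Hes1, Hey1 and Nrarp). They were chosen by gene symbol, and all 10 were found among the 23284 genes of the count table and passed the filter on low counts. The organoids were 3-dimensional cultures of lung cells in drops of 90% matrigel. The cells came from mice with an Sftpc-eGFP transgene, in which the surfactant protein C gene, active in alveolar type 2 (AT2) cells, drives a green fluorescent protein (GFP). The 4 organoid lines, named SN2285, SN2286, SN2293 and SN2294, were each sorted by flow cytometry into GFP-positive and GFP-negative cells, with 1 polyA RNA library per sort and line (n = 4 per group). Both sorts carry the transgene, and the labels name no treatment other than the sort. The age of the mice, any further alleles and whether the 4 lines stem from different mice are not stated in the labels, so p-values measure only the spread between these libraries.

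Notch receptors sit in the membrane of a signal-receiving cell and bind ligands of the Jagged and Delta-like families on a neighbouring cell. Binding leads to cleavage by ADAM proteases and gamma-secretase. The freed intracellular part joins the DNA-binding protein RBPJ in the nucleus and switches on targets, many of which encode repressors of the Hes and Hey families. In the airway epithelium, basal cells are known to carry Notch1 and Jagged ligands, and Notch signalling favours secretory over ciliated fate; in the developing lung, Notch2 has been tied to alveolar formation.

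Total counts were 11202576 to 16032633 in 7 libraries and 5910344 in the GFP-negative library of line SN2294. Levels are depth-scaled counts (CPM) with a composition factor (TMM), and a log2 difference or fold change is GFP-positive minus GFP-negative, from edgeR's quasi-likelihood test, with p-values adjusted over all 12848 genes tested. That fit has the sort as its only term, so its SEs, intervals and p-values do not use the pairing by line. A gene was called at a false discovery rate (FDR) of 0.05. The sort labels matched their markers: all 8 AT2 markers were higher in GFP-positive libraries (summed level 35943 to 41001 CPM against 3688 to 5302 CPM). Sftpc, whose gene drives the GFP, is among the 8, so its difference follows from the sort itself. The GFP-negative libraries still held AT2 marker transcripts. All 8 basal cell markers were lower in GFP-positive libraries (71.8 to 121 CPM against 2226 to 2746 CPM), as were the 6 tested fibroblast markers (10.2 to 18.7 CPM against 359 to 662 CPM over the whole list of 8) and the 4 tested pericyte and smooth muscle markers (22.6 to 39.7 CPM against 137 to 174 CPM over the whole list of 8). Endothelial markers summed to 0.667 to 2.52 CPM in every library, with Emcn at 0 throughout. The GFP-negative library of line SN2294 stood apart in leukocyte markers (95.1 CPM against 18.3 to 30.9 CPM in the other 3), and the GFP-positive library of line SN2285 had the highest basal marker sum of its group (121 CPM against 71.8 to 91.3 CPM). Without both of those libraries the same number of Notch genes, 9, was called lower, beside 4939 of all genes called in either direction.

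Of the receptors and ligands, Notch1, Notch3 and Jag2 were carried mainly by the GFP-negative cells. GFP-positive cells kept 36.4 to 62.1% of the GFP-negative level of Jag1 and 32.4 to 75.7% of that of Dll1. Of the 10 genes, 9 were lower in GFP-positive cells and none was higher, whereas 21.8% of all genes tested were called lower and 40.7% in either direction. With line as a term in the fit the same 9 were lower, beside 25.2% of all genes tested (48% in either direction). The highest adjusted p among the 9 was then 0.0024 (Dll1, quasi-likelihood test). The exception was Notch2, which stood at about the same level in both sorts. At least 2-fold lower were 8 of the 10, beside 11.1% of all genes tested. The levels of the 2 groups did not overlap for 9 of the 10, all lower in GFP-positive cells, beside 21.6% of all genes that did not overlap in that direction. The median log2 fold change was −1.62 over the 10 genes and −0.01 over all genes tested. In bulk RNA, fewer cells of a type and less RNA per cell cannot be told apart.

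**Figure D1:**
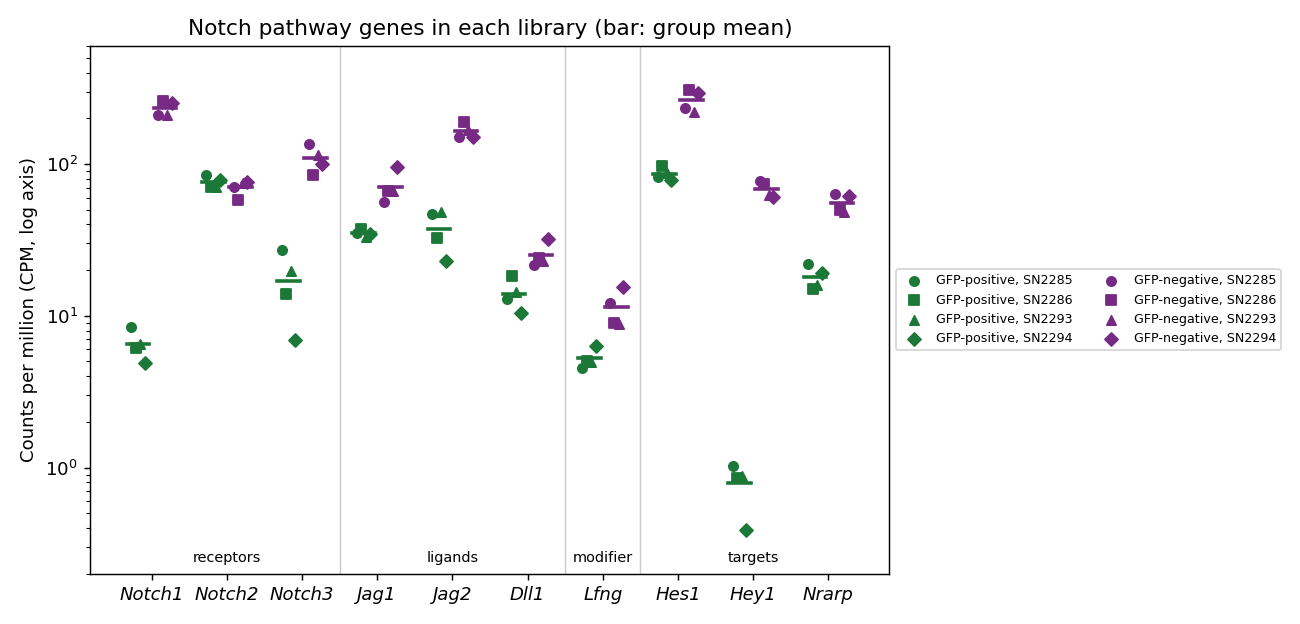
CPM on a log axis for the 10 Notch genes in each of the 8 libraries, with marker shape for the line, colour for the sort and a bar for the group mean. The 2 colours are apart for 9 genes and overlap for Notch2, and Hey1 and Notch1 show the widest gaps.

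Among the receptors, Notch1, the main receptor of airway basal cells, was found mostly in the GFP-negative sort. Its level was 8.48, 6.10, 6.52 and 4.88 CPM in GFP-positive libraries of lines SN2285, SN2286, SN2293 and SN2294, and 210.3, 261, 211 and 253 CPM in the GFP-negative libraries of the same lines. The highest GFP-positive library was thus far below the lowest GFP-negative one. Notch1 was 36.2-fold lower in GFP-positive cells (log2 difference −5.18, SE 0.16, adjusted p = 3.0e-09), and lower in 4 of 4 lines.

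Notch2, the receptor tied to alveolar development, went another way. It stood at 85.1, 70.7, 70.5 and 78.2 CPM in the GFP-positive libraries and at 70.5, 58.1, 75.2 and 76.6 CPM in the GFP-negative ones, in the same order of lines. The groups overlapped, with 3 lines higher and 1 lower in GFP-positive cells. The log2 fold change of 0.12 (SE 0.10, 95% interval −0.10 to 0.34, adjusted p = 0.37) did not pass the test, and its sign turned to −0.03 when counts were scaled by library size alone. That scaling shifted the median of all genes by −0.15, from −0.01 to −0.16.

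Notch3, a receptor known from mural cells of blood vessels and from early epithelial progenitors, was the most variable of the set in GFP-positive libraries (SD 50.3% of the mean) and in its differences within lines. It stood at 26.99, 14.0, 19.8 and 6.96 CPM in GFP-positive libraries and at 135, 85.3, 115 and 101 CPM in GFP-negative ones. The groups did not overlap, but the GFP-positive values spread over a wide range, with SN2285 highest and SN2294 lowest. Notch3 was 6.49-fold lower in GFP-positive cells (log2 difference −2.70, SE 0.39, adjusted p = 0.0013). Without the 2 libraries that stood apart in marker sums its log2 fold change was −3.05, and without line SN2294 it was −2.45.

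All 3 ligands were lower in GFP-positive cells, by less than Notch1. Jag2, a ligand abundant in basal cells, stood at 46.8, 32.6, 48.0 and 22.8 CPM in GFP-positive libraries and at 152, 190, 168 and 151 CPM in GFP-negative ones. Its GFP-negative values lay close together and all above the GFP-positive ones, and Jag2 was 4.41-fold lower in the GFP-positive sort (log2 difference −2.14, SE 0.23, adjusted p = 1.3e-04). Jag1, the other Jagged ligand, stood at 34.96, 37.2, 33.2 and 34.5 CPM in GFP-positive libraries, a spread of 4.67% of the mean, and at 56.3, 66.0, 66.8 and 94.98 CPM in GFP-negative ones. The highest of these was line SN2294, the shallow library with leukocyte transcripts. Jag1 was 2.02-fold lower in GFP-positive cells (log2 difference −1.01, SE 0.14, adjusted p = 1.2e-04), and −0.84 without line SN2294.

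Dll1, a Delta-like ligand, had the smallest difference among the genes that were called. Its level was 12.9, 18.3, 14.2 and 10.4 CPM in GFP-positive libraries and 21.7, 24.2, 23.1 and 32.1 CPM in GFP-negative ones. The groups came near each other without overlap, and line SN2294 was lowest in one sort and highest in the other. Dll1 was 1.80-fold lower in GFP-positive cells (log2 difference −0.85, SE 0.18, adjusted p = 0.0023), and −0.60 without line SN2294, where it was still called.

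Lfng encodes the lunatic fringe glycosyltransferase, which adds sugars to Notch receptors and changes their response to Jagged and Delta-like ligands. In the GFP-negative cells it stood at 12.2, 8.93, 8.83 and 15.6 CPM, and in the GFP-positive libraries at 4.54, 5.05, 4.99 and 6.37 CPM. Both groups were low and the gap between them was narrow, but no GFP-positive library reached a GFP-negative one. Lfng came out 2.13-fold lower in the GFP-positive sort (log2 difference −1.09, SE 0.21, adjusted p = 0.0013).

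Of the targets, Hey1, a transcriptional repressor, differed most of all 10 genes. It was counted 12, 9, 11 and 6 times in the GFP-positive libraries and 1161, 1127, 1029 and 383 times in the GFP-negative ones. In CPM that was 1.03, 0.858, 0.885 and 0.390 against 77.6, 74.0, 62.6 and 60.3. Hey1 was 88.7-fold lower in GFP-positive cells (log2 difference −6.47, SE 0.20, adjusted p = 1.8e-09), and 0.132% of the genes tested had a lower log2 fold change.

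Hes1, the repressor most widely used as a sign of Notch activity, was by contrast well present in both sorts. It stood at 81.8, 97.0, 87.6 and 78.6 CPM in GFP-positive libraries and at 233, 307, 221 and 294 CPM in GFP-negative ones. The groups were far apart, yet the GFP-positive cells kept 26.7 to 39.6% of the GFP-negative level of their line. Hes1 was 3.06-fold lower (log2 difference −1.61, SE 0.12, adjusted p = 8.1e-07).

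Nrarp encodes a small ankyrin-repeat protein that is induced by Notch and limits the active Notch complex. It stood at 22.02, 14.96, 15.9 and 19.1 CPM in GFP-positive libraries and at 63.5, 49.5, 48.3 and 61.4 CPM in GFP-negative ones. Lines that were high in one sort were high in the other, so the difference within a line was the steadiest of the set, from −1.73 to −1.53 on the log2 scale. Nrarp was 3.08-fold lower in GFP-positive cells (log2 difference −1.62, SE 0.14, adjusted p = 2.8e-06).

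**Figure D2:**
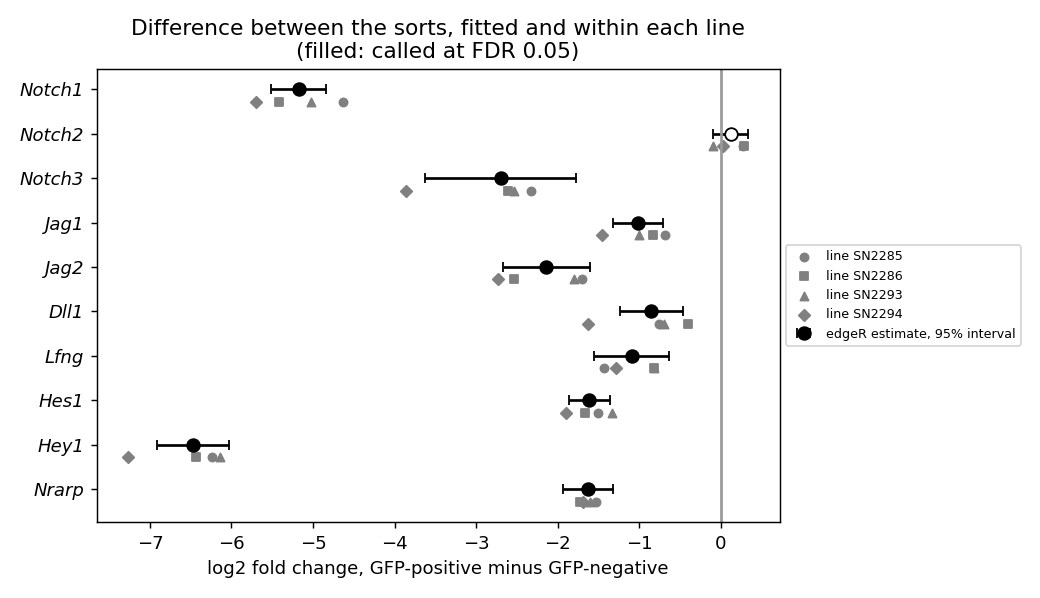
Log2 fold change, GFP-positive minus GFP-negative, for each of the 10 genes: the edgeR estimate with its 95% interval in black (hollow where not called) and the 4 within-line differences in grey. Hey1 and Notch1 lie farthest left, Notch2 spans 0, and line SN2294 is the leftmost grey point for 7 genes.

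RBPJ binds DNA at the core TGGGAA, which was searched on both strands (TTCCCA on the other) in the 250 bases before each annotated start. RefSeq promoters (GRCm38.p6) matched 8 of the 10 genes, Hes1 and Hey1 not among them, with 9 starts since Dll1 has 2. Of the 9 windows 1 held the core, that of Lfng, while 21.6% of 32851 promoters of the same length did. The Lfng window is shown because it holds the core on both strands, and that of Nrarp because it is the one target gene with a window. Both genes lie on the plus strand, and capitals mark the core.
Lfng, chr5:140607091-140607340: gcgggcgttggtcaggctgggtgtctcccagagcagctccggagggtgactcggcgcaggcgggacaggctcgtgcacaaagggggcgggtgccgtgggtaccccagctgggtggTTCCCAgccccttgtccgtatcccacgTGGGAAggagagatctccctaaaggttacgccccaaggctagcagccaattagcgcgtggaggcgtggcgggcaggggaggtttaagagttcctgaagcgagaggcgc
Nrarp, chr2:25180508-25180757: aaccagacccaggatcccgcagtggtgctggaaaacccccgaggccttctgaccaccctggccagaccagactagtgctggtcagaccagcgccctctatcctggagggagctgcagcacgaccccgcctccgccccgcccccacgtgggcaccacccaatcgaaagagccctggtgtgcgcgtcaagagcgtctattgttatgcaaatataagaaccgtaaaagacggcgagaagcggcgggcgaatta
In the Lfng window the cores begin 135 and 108 bases before the start. The Nrarp window, and those of Notch1, Notch2, Notch3, Jag1, Jag2 and Dll1, did not hold these letters. The counts were made on another build (mm9), so these positions belong to the reference sequence only.

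Whether genes of the same role differed by unequal amounts was tested on the ratio of 2 genes within a library, from which library scaling and gene length cancel. The 9 pairs within a role were compared between the sorts by a two-sided exact permutation test over the 8 libraries, whose smallest p is 0.0286, and adjusted over the 9. Of the 9 pairs, 7 passed with no overlap between the sorts (adjusted p = 0.0367 each, exact permutation), and the direction was shared by 4 of 4 lines in each of the 7. That test treats the libraries as unpaired. With the lines as pairs, a sign-flip test passed 0 of the 9 (adjusted p = 0.161 for each of the 7, exact), and 4 lines cannot give a p below 0.125. The pairs of a role share genes, so the 7 are not separate results. Each ratio also rests on the same counts as the fold changes of its 2 genes above. The pair tests were chosen with earlier results known, so a pass adds no independent evidence. The share of other gene pairs that would pass was not computed. Among single genes tested, 39.5% did not overlap between the sorts in either direction.

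The receptor mix turned over between the sorts. The log2 ratio of Notch1 to Notch2 was −3.57 ± 0.30 (SD) in GFP-positive and 1.74 ± 0.30 in GFP-negative libraries. On that ratio Notch1 was 39.5-fold lower relative to Notch2 in GFP-positive cells. Notch3 fell less than Notch1, the log2 ratio of Notch1 to Notch3 being −1.24 ± 0.53 in GFP-positive and 1.11 ± 0.44 in GFP-negative libraries. Notch2 to Notch3 went from −0.62 ± 0.23 in GFP-negative to 2.33 ± 0.82 in GFP-positive libraries, a 7.72-fold shift.

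Among ligands, Jag2 fell more than the others. The log2 ratio of Jag1 to Jag2 was −0.04 ± 0.53 in GFP-positive and −1.24 ± 0.38 in GFP-negative libraries, and the call for this pair was lost without either the GFP-positive library of SN2286 or of SN2294, or the GFP-negative library of SN2285 or of SN2286 (adjusted p = 0.064 to 0.073, exact permutation). Jag2 to Dll1 stood at 1.39 ± 0.49 in GFP-positive and 2.72 ± 0.33 in GFP-negative libraries. The ratio of Jag1 to Dll1 differed by −0.13 between the sorts and did not pass (adjusted p = 0.55, exact permutation), with −0.43 to 0.17 over the 4 lines.

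Among targets, Hey1 fell by far more than Hes1 and Nrarp, whose own ratio did not differ beyond its spread. The log2 ratio of Hes1 to Nrarp was 2.27 ± 0.37 in GFP-positive and 2.24 ± 0.31 in GFP-negative libraries, a difference of 0.03 that did not pass (adjusted p = 0.91, exact permutation), with −0.21 to 0.26 over the lines. The log2 ratio of Hes1 to Hey1 was 6.78 ± 0.55 in GFP-positive and 1.94 ± 0.30 in GFP-negative libraries. Relative to Nrarp, Hey1 was 28.1-fold lower in GFP-positive cells.

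Levels were set beside each other between genes per kilobase (kb) of each gene's longest coding transcript in GENCODE M21, an annotation other than the one counted, so the order is approximate. In GFP-negative cells the receptor order was Notch1 (22.2 to 27.5 CPM per kb), Notch3 (10.6 to 16.9) and Notch2 (5.54 to 7.29), with no overlap between neighbours. With the union of all annotated exons as length, Notch1 (14.8 to 18.3) and Notch3 (10.5 to 16.7) overlapped, and Notch3 was the higher in line SN2285 (16.7 against 14.8). In GFP-positive cells it was Notch2 (6.71 to 8.10 CPM per kb), Notch3 (0.868 to 3.37) and Notch1 (0.514 to 0.894), the last 2 overlapping in range. Notch2 thus made up 72.9 ± 8.37% of the summed receptor level per kb in GFP-positive and 14.9 ± 1.60% in GFP-negative libraries (SD). For Notch1 the shares were 6.76 ± 0.64% and 54.9 ± 6.53%, and 4.71 ± 0.449% and 45.3 ± 6.59% with union lengths.

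The ligand order in GFP-negative cells was Jag2 (29.7 to 37.1 CPM per kb), Jag1 (10.03 to 16.9) and Dll1 (6.05 to 8.97), with no overlap. In GFP-positive cells Jag2 (4.47 to 9.41 CPM per kb) overlapped both Jag1 (5.92 to 6.62) and Dll1 (2.91 to 5.11). Jag2 made up 62.3 ± 6.03% of the summed ligand level in GFP-negative and 41.3 ± 8.34% in GFP-positive libraries. With union lengths the mean order of Jag1 and Jag2 in GFP-positive cells reversed (6.001 and 5.39 CPM per kb). The target Hes1 was the highest of all 10 per kb in both sorts, at 58.8 ± 5.49 CPM per kb in the positive sort and 180 ± 29.2 CPM per kb in the negative sort.

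**Figure D3:**
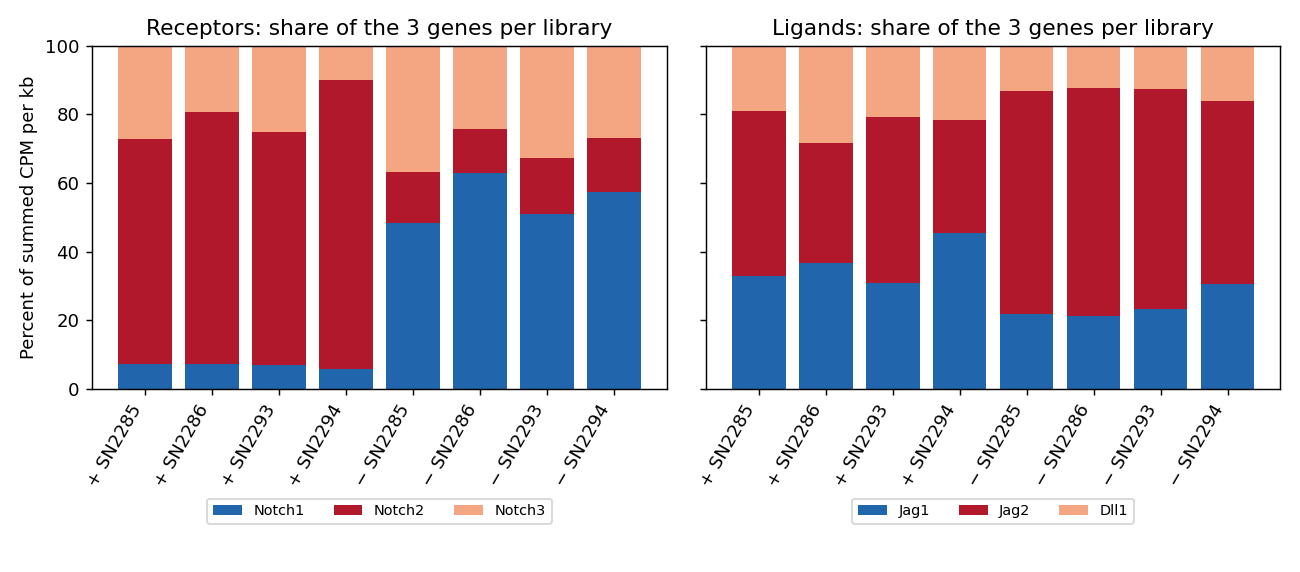
Share of each gene in the summed CPM per kb of the 3 receptors (left) and the 3 ligands (right) in each library, GFP-positive (+) and GFP-negative (−). Notch2 holds 65.5 to 84.4% of the receptor bar in the positive sort and 12.7 to 16.4% in the negative sort.

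The level left in GFP-positive cells, as a percentage of the GFP-negative level of the same line, split the genes. Hey1 kept 0.647 to 1.41% and Notch1 1.93 to 4.03%. Notch3 kept 6.90 to 19.9%, Jag2 15.1 to 30.8%, Hes1 26.7 to 39.6%, Nrarp 30.2 to 34.7%, Dll1 32.4 to 75.7%, Jag1 36.4 to 62.1% and Lfng 37.1 to 56.5%. Notch2 stood at 93.7 to 122%.

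Markers of several other cell types were also lower in GFP-positive cells. For the 8 basal markers the median by line was 3.15% (SN2285), 1.25% (SN2286), 1.33% (SN2293) and 1.13% (SN2294). Notch1 was likewise highest in line SN2285 (4.03%), while Hey1 was highest in line SN2293 (1.41%). The basal regulator Trp63 kept 1.41 to 3.13%. The median over the 6 called fibroblast markers was 1.68 to 2.97%, and over the 4 called pericyte and smooth muscle markers 4.30 to 8.34%. Of the 7 tested markers of club and other secretory airway cells 4 were lower and none higher, with a sum over the whole list of 265 to 412 CPM against 1394 to 1848 CPM. Markers of alveolar type 1 cells went the other way, 5 of 7 tested being higher and none lower (2217 to 3129 CPM against 1328 to 1965 CPM). With line as a term 6 of these were higher and 1 was lower. Of all genes tested, 18.9% were higher in the main fit. The part of these cell types in the Notch differences was not tested.

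**Figure D4:**
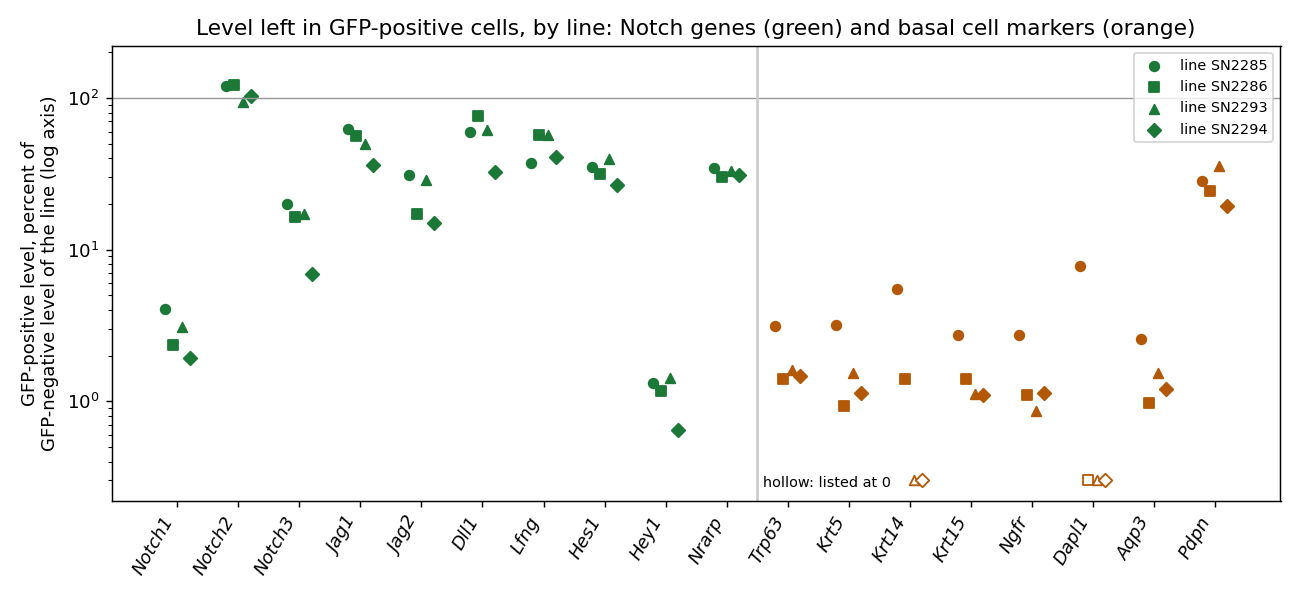
GFP-positive level as a percentage of the GFP-negative level of the same line, on a log axis, for the 10 Notch genes (green) and the 8 basal cell markers (orange), with 1 point per line and hollow points for a GFP-positive count of 0. The points of Hey1 and Notch1 lie among those of the basal markers other than Pdpn, and the other Notch genes lie higher. In the fit, the log2 difference of Hey1 (−6.47) was below that of each of the 8 basal markers (lowest −6.09).

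Line SN2294 had the widest gap between the sorts for 7 of the 9 genes that fell, namely Notch1, Notch3, Jag1, Jag2, Dll1, Hes1 and Hey1. Over all 2801 genes called lower, this line had the widest gap in 42.2%. The GFP-negative library of SN2294 is both the shallowest and the one with the highest leukocyte marker sum, and the part of these in the gap was not tested. All 9 genes were still called lower without the line, in a fit of the other 3, where 5070 of all genes were called in either direction.

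Beyond the 10 genes, 63 others of the pathway were examined in 9 lists, drawn up with earlier results of these data known. Of the 63, 48 passed the filter; 18 were lower and 7 higher in GFP-positive cells, where 21.8% and 18.9% of all genes tested were. Their median log2 fold change was −0.24. At least 2-fold lower were 6 of them and 1 was at least 2-fold higher, where 11.1% and 4.41% of all genes tested were. Both 2-fold shares lay near those over all genes. With line as a term 25 of the 48 were lower and 8 higher, beside 25.2% and 22.8% of all genes. Scaling by library size alone gave 29 and 3 of the 48, beside 32.7% and 11.7% of all genes. The share called lower was thus above that over all genes in each of these settings. With lists drawn up after earlier results were known, that comparison is descriptive only.

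The 1 that was higher was Dlk1, a Delta-like protein without the usual receptor-binding domain that is often described as a Notch inhibitor. Its counts were 78, 90, 83 and 67 in the positive sort and 1, 0, 2 and 3 in the negative sort (log2 difference 5.70, SE 0.53, adjusted p = 4.7e-06). The direction was thus opposite to that of Jag1, Jag2 and Dll1, on low counts. Its relative Dlk2 was lower in GFP-positive cells, where it stood at 0.382 ± 0.295 CPM and in GFP-negative cells at 4.73 ± 0.915 CPM (log2 difference −3.54, SE 0.46). Lower too were 2 other atypical ligands, Dner (log2 difference −3.17, SE 0.65) and Nov, now Ccn3 (−2.84, SE 0.39). Dner was counted 67 times in the GFP-negative library of line SN2286 and 11 to 21 times in the other 3.

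The counts by list are to be read against the same shares of all genes, 21.8% lower and 18.9% higher (32.7% and 11.7% with library size alone), and lists this short that lie near them show nothing particular to the pathway. Of 10 tested genes for receptor-cleaving proteases, 3 were lower and none higher, led by Furin, which cuts the receptor during its maturation (56.6 ± 8.34 CPM against 118 ± 7.76 CPM; log2 difference −1.05, SE 0.10). With scaling by library size alone 6 were lower. Of the ADAM protease genes, Adam10 was slightly lower (log2 difference −0.37) and Adam17 was not called (−0.01). Of the 4 tested glycosyltransferase genes, Lfng included, 3 were lower and none higher.

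In the nuclear complex 6 of 13 genes were lower and 3 higher, where 21.8% and 18.9% of all genes tested were. Rbpj itself was at 33.7 ± 3.32 CPM in the positive sort and 30.5 ± 5.00 CPM in the negative sort (log2 difference 0.13, 95% interval −0.14 to 0.41, adjusted p = 0.44). The coactivator genes Maml1 (−0.36), Maml2 (−0.84) and Maml3 (−0.58) were lower. Tle3, a Groucho corepressor that Hes proteins recruit, was lower (log2 difference −1.48, SE 0.15), and its relative Tle2 was higher (0.97, SE 0.21). With scaling by library size alone 8 were lower and 1 was higher.

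Of 8 ligand endocytosis genes 2 were lower and 2 higher, near the shares over all genes, and 4 and 3 with line as a term in the fit, where 25.2% and 22.8% of all genes were. Of 10 tested genes for turnover and inhibition, Nrarp included, 3 were lower and 1 higher, near or under the shares over all genes. Numbl, a relative of the Notch inhibitor Numb, stood at 3.73 ± 1.34 CPM in the positive sort and 10.9 ± 1.53 CPM in the negative sort (log2 difference −1.55, SE 0.24), while Numb itself differed by −0.27 (called). With scaling by library size alone 6 of this list were lower and none higher.

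**Figure D5:**
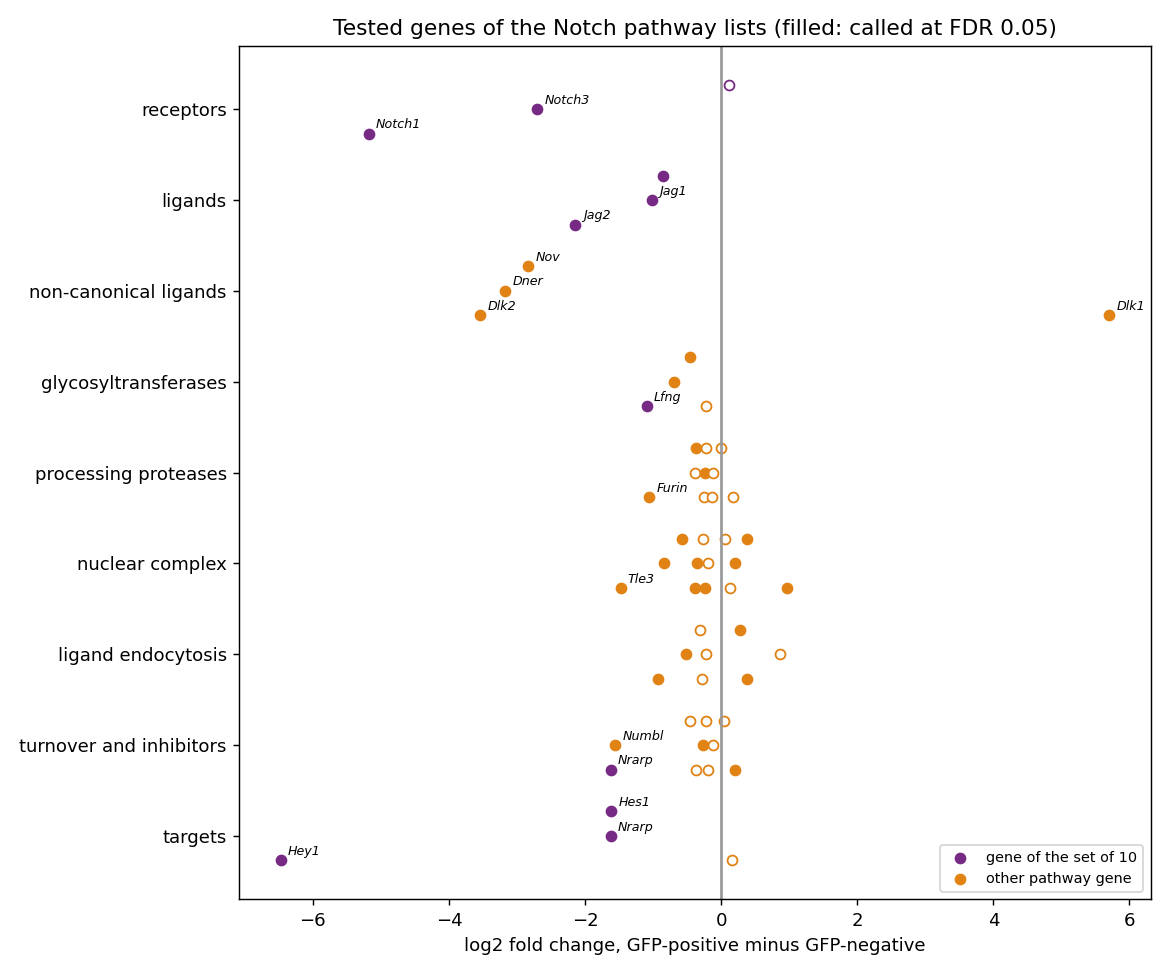
Log2 fold change of each tested gene in the 9 Notch pathway lists, purple for the 10 genes and orange for the others, filled where called; called genes with a change of at least 2-fold are named, and height within a list carries no value. The targets reach −6.47, the receptors −5.18, the non-canonical (atypical) ligands −3.54 and the ligands −2.14. Not called were Notch2 among the receptors and 1 of the 4 tested targets (0.16). Dlk1 stands alone at the right, and the proteases span −1.05 to 0.17.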

How the data were processed

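Per the labels, each library started from 300 ng RNA, amplified over 14 PCR cycles. The authors deposited raw read counts per gene symbol, 1 column per library. The submitters' processing notes name cutadapt 1.16, STAR 2.5.3a, featureCounts, Subread and the build mm9; the handling of annotation, strand and multi-mapped reads is not given in the sources used here, so overlapping and antisense genes cannot be told apart. Genes were kept by filterByExpr of edgeR 4.0.16 (R 4.3.3; minimum of 10 counts at the median depth in 4 or more libraries, minimum total of 15), scaled by TMM and fitted across all genes with the sort as the only term (robust quasi-likelihood test, two-sided, Benjamini-Hochberg). An SE is the log2 fold change over the square root of F. Pair ratios used a prior count of 0.5. The code was checked on simulated counts. The 10 genes, the lists and the tests were chosen with earlier results of these data known. All 10 are named, as is each other pathway gene that was called and changed at least 2-fold; further named pathway genes (Adam10, Adam17, Rbpj, Maml1, Maml2, Maml3, Tle2 and Numb) were chosen after their values were seen. Libraries of a line were paired: their deviations from the group means correlated across genes at 0.32 to 0.46, and those of different lines at −0.003 or lower. Alternatives were line as a term, DESeq2 1.42.0, library size alone, upper-quartile factors, no filter, and leaving out libraries or lines; leaving out both libraries with unusual marker sums was added after the data were seen, as was the choice of transcript over union exon length.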

Additional observations from a re-analysis of the deposited data

How the results depend on the processing

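All 9 calls among the 10 genes, and the absence of a call for Notch2, held under each of the 18 alternatives. No fold change, taken off the log2 scale, moved by more than 1.28-fold (Notch3). With line as a term (replicate block), 6169 genes passed in place of 5231, 9 of the 10 Notch genes among them, and no call among the 10 changed. DESeq2 gave 5388 genes, and leaving out libraries or lines 3867 to 5135. Of the pair ratios, 7 of 9 passed, 7 with a prior count of 2, and 6 to 7 without 1 library. The paired sign-flip test over the 4 lines passed 0, since its smallest p is 0.125.

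Counts in the pathway lists moved by more than 1.5 times in some settings. With line as a term 7 ligand endocytosis genes were called in place of 4. Protease genes went from 3 to 6 with library size alone and to 5 without line SN2294. Turnover genes went from 4 to 2 without the GFP-positive library of SN2286 or SN2293, the GFP-negative library of SN2285, or any one of lines SN2285, SN2286 and SN2293. Nuclear complex genes went from 9 to 5 without line SN2286 or SN2293. The cause was not tested. With library size alone, 26.4% of all calls were higher in GFP-positive cells in place of 46.5%. Counts of PCR products are not independent molecules, and the low counts of Hey1 in GFP-positive and of Dlk1 in GFP-negative libraries limit their fold changes.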

Other observations

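Of the 63 other pathway genes, 15 did not pass the low-count filter and were not tested: Notch4, Dll3, Dll4, Cntn1, Mfap2, Mfap5, Mfng, Dtx1, Bend6, Hes2, Hes3, Hes5, Hes7, Hey2 and Heyl. Heyl, a relative of Hey1, had a count of 0 in each GFP-positive library, and of 11 (SN2285), 7 (SN2286), 7 (SN2293) and 4 (SN2294) in the negative sort. Dll3, a ligand best known from neuroendocrine cells, was counted 5, 1, 2 and 2 times in GFP-positive libraries and 0 times in the GFP-negative ones. Notch4, the receptor best known from endothelium, was counted 2 to 13 times in every library, and the endothelial ligand Dll4 0 to 8 times.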
